A study of Mus musculus with 2 samples.

Results

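The Mir148 and Mir152 family comprises 3 miRNA genes of the mouse, Mir148a, Mir148b and Mir152, chosen by gene symbol, out of 1973 genes counted. They were measured by small RNA sequencing of neural tube, the embryonic tissue that forms the brain and spinal cord, in B6NCrl embryos of 15.5 days. All embryos were described as healthy, and no allele or treatment was given. The 2 libraries form 1 group of biological replicates: library 1 was a pool of 78 embryos and library 2 a pool of 62 embryos, males and females together. Library 1 held 4228685 sense-strand counts in miRNA genes and library 2 held 6039889. Levels are given as CPM, the counts of a gene scaled to 1000000 of these sense counts, and as mean ± SD over both libraries (n = 2) where no library is named. A read of this assay is a whole small RNA, so counts were not divided by gene length.

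A miRNA guides the silencing machinery to messenger RNAs that pair with its seed, the bases near its 5′ end, so that miRNAs with the same seed can repress the same targets. The members of this family make the same seed on the 3p arm of their hairpins. The family is best known from tissues outside the nervous system, such as liver and pancreas, and the maintenance DNA methyltransferase Dnmt1 is among its known targets. In a dissected tissue, fewer cells making a miRNA and less of it in each cell cannot be told apart.

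The mature 3p sequences show what joins the members, with the seed (bases 2 to 8) in capitals. They were taken from RefSeq on build GRCm38.p6, in which all 3 genes matched by symbol.

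miR-148a-3p: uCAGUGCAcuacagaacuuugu

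miR-148b-3p: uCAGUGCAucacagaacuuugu

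miR-152-3p: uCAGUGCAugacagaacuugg

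Of the 1738 mature mouse miRNAs in that table, these 3 alone had the seed CAGUGCA. Outside the seed they differed at few bases, counted from 1 at the 5′ end. From miR-148a-3p to miR-148b-3p the changes were C9U and U10C, which left 20 of 22 bases identical. From miR-148a-3p to miR-152-3p they were C9U, U10G and U20G over the 21 bases that both have, and from miR-148b-3p to miR-152-3p they were C10G and U20G. On the 5p arm the seed was AAGUUCU for both miR-148a-5p and miR-148b-5p and AGGUUCU for miR-152-5p. The 5p arms are shown because the deposited counts are per gene, so that a count may come from either arm.

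miR-148a-5p: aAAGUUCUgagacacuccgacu

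miR-148b-5p: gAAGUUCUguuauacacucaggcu

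miR-152-5p: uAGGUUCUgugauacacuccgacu

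The hairpins are the units that were counted, and are printed 5′ to 3′ with the mature 3p arm in capitals.

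Mir148a: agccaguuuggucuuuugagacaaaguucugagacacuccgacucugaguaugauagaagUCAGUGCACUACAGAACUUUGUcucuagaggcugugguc

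Mir148b: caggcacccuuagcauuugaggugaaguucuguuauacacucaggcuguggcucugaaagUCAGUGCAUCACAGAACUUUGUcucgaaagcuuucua

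Mir152: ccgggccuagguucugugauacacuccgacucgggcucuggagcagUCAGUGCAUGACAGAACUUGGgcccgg

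On mm10, Mir148a (ENSMUSG00000065505.1) lies on the minus strand at chr6:51269812-51269910, in no other gene annotated on that strand, and the nearest protein-coding gene, Nfe2l3, is 162.76 kb away. Mir148b (ENSMUSG00000065560.1) lies on the plus strand at chr15:103285125-103285221, inside Copz1. Mir152 (ENSMUSG00000065515.1) lies on the plus strand at chr11:96850393-96850465, inside Copz2. Copz1 and Copz2 are related genes that encode zeta subunits of coatomer, the coat of vesicles that move between the Golgi and the endoplasmic reticulum. Both hairpins were intronic: the Mir148b hairpin overlapped 4 annotated transcripts of Copz1 and the Mir152 hairpin 3 of Copz2, with 0 exons over either. No host transcript was measured in these libraries of small RNA.

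Reads that aligned to several places were not counted in any gene, which matters for miRNAs that look alike. The longest stretch that Mir148a and Mir148b shared with any other of the annotated precursors was 15 bases, shared with each other. For Mir152 it was 12 bases, shared with Mir148a. None of the 3 shared 20 bases with another precursor. Positions outside annotated miRNA genes were not searched.

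All 3 members were present, at levels around the middle of the detected genes or below. Mir148a, in no other gene annotated on its strand, had 784 counts (185 CPM) in library 1 and 834 counts (138 CPM) in library 2, or 162 ± 33.5 CPM. Mir148b, in the Copz1 intron, had 506 counts (120 CPM) and 608 counts (101 CPM), or 110 ± 13.4 CPM. Mir152, in the Copz2 intron, had 194 counts (45.9 CPM) and 205 counts (33.9 CPM), or 39.9 ± 8.44 CPM. Library 1 was higher for each member, and the values of one member did not overlap those of another. No read was counted on the opposite strand of any of the 3, where a count of 0 allows at most 0.709 CPM for library 1 and 0.497 CPM for library 2 (counting error only).

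**Figure D1:**
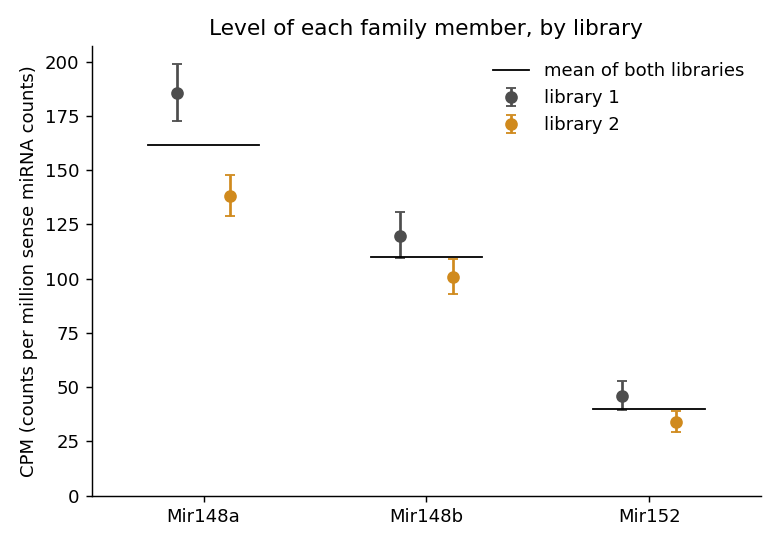
CPM (vertical axis) of each member in library 1 (grey) and library 2 (orange), with 95% exact Poisson intervals that cover counting error only and a line at the mean of both. Mir148a lies between 138 and 185 CPM, Mir148b between 101 and 120 CPM and Mir152 between 33.9 and 45.9 CPM, each higher in library 1.

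Together the members held 0.0351% of the sense counts in library 1 and 0.0273% in library 2, or 312 ± 55.3 CPM. Among the 363 genes with at least 10 counts in each library, the median level was 136 CPM, with quartiles at 25.01 and 869 CPM. Mir148a ranked 170, Mir148b 191 and Mir152 252 by mean CPM, and 53.2%, 47.4% and 30.6% of the detected genes lay below them. Mir148a ranked 167 in library 1 and 171 in library 2, Mir148b 190 and 188, and Mir152 246 and 249. The order of the 3 was the same in both pools. Ranks are by counted reads, and genes whose copies lose reads as multimapping can rank below their true level.

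The proportions within the family were similar in both pools. Of the family's counts, Mir148a took 52.8% in library 1 (50.3 to 55.4, 95% Wilson interval) and 50.6% in library 2 (48.2 to 53.0). Mir148b made up 34.1% (31.7 to 36.5) and 36.9% (34.6 to 39.3). Mir152 made up 13.1% (11.5 to 14.9) and 12.4% (10.9 to 14.1). For each member the intervals of the libraries overlapped.

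Ratios between members do not depend on library scaling. Mir148a exceeded Mir148b 1.55-fold in library 1 (95% exact interval 1.38 to 1.74) and 1.37-fold in library 2 (1.23 to 1.53). It exceeded Mir152 4.04-fold in library 1 (3.45 to 4.75) and 4.07-fold in library 2 (3.49 to 4.76). Mir148b exceeded Mir152 2.61-fold (2.21 to 3.09) and 2.97-fold (2.53 to 3.49). None of these 6 intervals reached 1, so the order Mir148a, Mir148b, Mir152 in counts exceeded the counting error in each pool. How evenly the assay captures different sequences was not measured, and both pools would share such a bias. These are therefore ratios of counted reads. Between the pools, the ratio of Mir148a to Mir148b was 1.13 times as large in library 1 as in library 2 (95% exact interval 0.966 to 1.32). For Mir148a to Mir152 the quotient was 0.993 (0.793 to 1.24), and for Mir148b to Mir152 it was 0.879 (0.695 to 1.11). The interval of each quotient includes 1, and its width shows how much of a shift these counts could have missed.

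**Figure D2:**
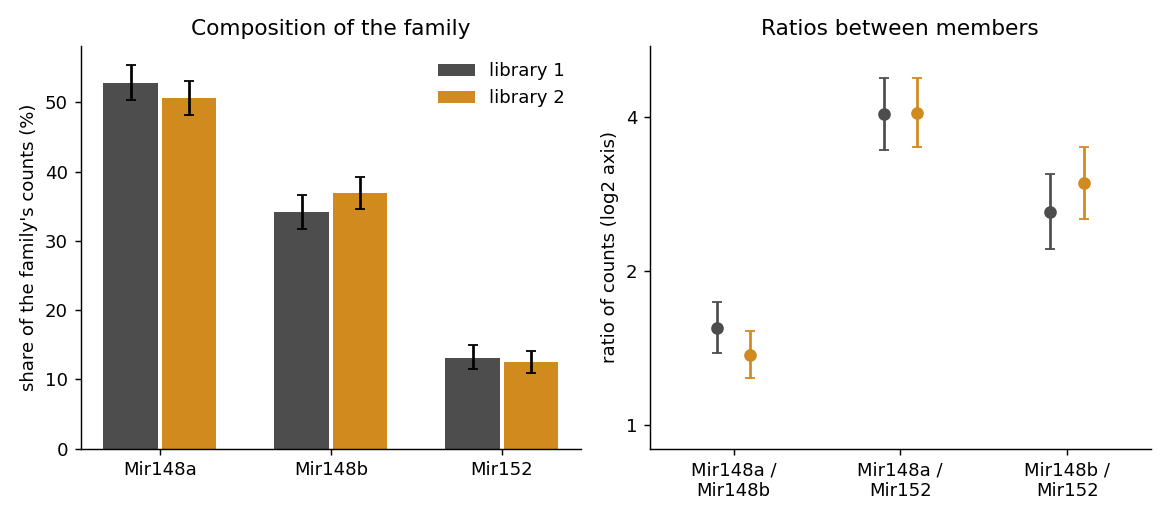
Left, the share of the family's counts taken by each member (vertical axis in %) in library 1 (grey) and library 2 (orange), with 95% Wilson intervals. Right, the ratio of counts between members on a log2 axis, with 95% exact intervals, where the intervals of the libraries overlap for all 3 pairs.

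Between the pools, all 3 members were somewhat higher in library 1 by a test that takes account of counting error alone. With library sizes scaled by TMM, Mir148a was 1.31-fold higher in library 1 (95% exact interval 1.19 to 1.45; exact binomial test, two-sided, Benjamini-Hochberg adjusted over 363 genes, p = 1.93e-07). Mir152 was 1.32-fold higher (1.08 to 1.61; same exact test, adjusted p = 0.0144). Mir148b was 1.16-fold higher (1.03 to 1.31; same exact test, adjusted p = 0.0299), and without a filter on low counts its adjusted p in this exact test was 0.123. The family sum was 1.26-fold higher in library 1 (1.17 to 1.35). This test compares the reads of 2 libraries, not conditions.

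The calls have to be read against how often any gene was called. The test called 181 of the 363 detected genes (49.9%), of which 93 (25.6% of the detected genes) were higher in library 1 and 88 (24.2%) higher in library 2. The test calls smaller differences where counts are higher, and among the 83 detected genes with as many total counts as the members (399 to 1618 in both libraries together, a range set after the counts were seen) 28 were called higher in library 1 (33.7%) and 16 higher in library 2. All 3 members were among these 28. By the exact test of edgeR, in which variation between the pools estimated over all genes enters as well, 8 genes (2.2%) were called and 0 of the 3 members, with adjusted p = 1 for each; 14 genes had an unadjusted p under 0.05 in that test, and the members' unadjusted p ranged from 0.585 to 0.766. That variation was a coefficient of variation of 34.3%, estimated from these same libraries. By edgeR's exact test even Mir143, 4.44-fold higher in library 1, was not called (adjusted p = 0.150). With 1 library on each side, that test cannot decide on differences as small as those of the members.

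On the log2 scale, the members' median ratio between the pools, library 1 over library 2, was 0.39, against -0.0036 over the 363 detected genes. The quartiles of those genes lay at -0.16 and 0.25, and those of the 83 genes with counts like the members at -0.17 and 0.37. Mir148a, with 0.39, had 61 detected genes above it, Mir152, with 0.40, had 58, and Mir148b, with 0.22, had 96. A change under 1.5-fold was the rule, with 315 of the 363 genes inside that bound, the 3 members included.

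**Figure D3:**
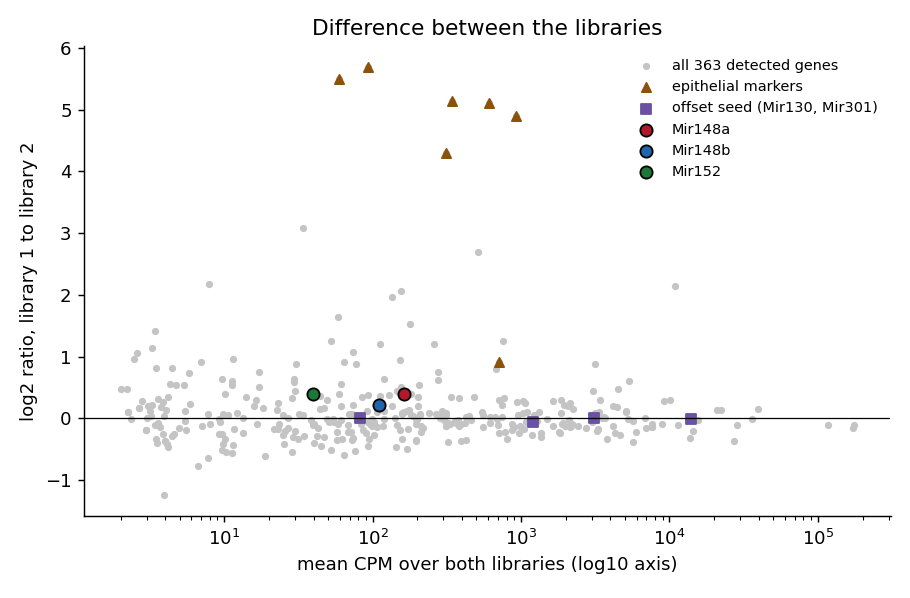
Log2 ratio of library 1 to library 2 (vertical axis, TMM-scaled) against the mean CPM on a log10 axis for the 363 detected genes (grey), with the family members, the Mir130 and Mir301 genes (purple squares) and the epithelial markers (brown triangles) marked. The members lie between 0.22 and 0.40, while the epithelial markers other than Mir203, which lies at 0.91, have the highest ratios.

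Most detected marker miRNAs of several other tissues were also called higher in library 1 by the binomial test, beside 25.6% of all detected genes. When variation between the pools was included, with edgeR's exact test, 6 of the epithelial and 2 of the gut and endocrine markers were called, which are all 8 genes called by it, and 0 of the mesenchyme, leukocyte, erythroid, endothelial, liver and neuronal markers. The 7 epithelial markers, all detected and all called higher in library 1, summed to 5458 and 631 CPM in libraries 1 and 2. Those with the highest mean over both libraries were Mir429 (1782 and 58.4 CPM) and Mir203 (934 and 485 CPM). Of 5 gut and endocrine markers, 4 were detected and called higher in library 1, and the list summed to 1286 and 245 CPM. Mir375 had 896 and 136 CPM, Mir192 had 217 and 54.1 CPM, Mir194-2 had 101 and 47.0 CPM, Mir215 had 60.5 and 6.95 CPM, and Mir194-1 had 11.4 and 1.49 CPM. Of 8 mesenchyme and smooth muscle markers, 6 were detected, 5 called higher in library 1 and 1, Mir140, called higher in library 2 (not with library sizes alone), with sums of 22420 and 7594 CPM, led by Mir143 (17950 and 3951 CPM) and Mir140 (2985 and 3025 CPM), and Mir145b was at 0 in both. Of the 5 leukocyte markers Mir142 was not analysed here, 3 were detected, 2 were called higher in library 1 and Mir142b was at 0 on the sense strand, with sums of 433 and 237 CPM from Mir223 (204 and 104 CPM), Mir155 (158 and 66.7 CPM) and Mir150 (71.4 and 66.6 CPM). The part of these tissues in the family's difference was not tested.

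Other markers differed less, and their calls stand beside 25.6% of all detected genes called higher in library 1 and 24.2% higher in library 2. Of the 2 symbols listed for liver, Mir122a matched no counted gene. Mir122 stood at 66.0 and 56.3 CPM in libraries 1 and 2 and did not pass the exact binomial test. Of the 3 erythroid markers 1 was called higher in library 1, with sums of 202 and 183 CPM from Mir451a (143 and 138 CPM), Mir144 (35.5 and 23.2 CPM) and Mir486 (23.9 and 21.4 CPM). Mir126a, the endothelial marker, had 22011 and 19666 CPM and was called higher in library 1 by the binomial test. Of the 6 neuronal markers 3 were detected and 2 called higher in library 2, with sums of 8550 and 9258 CPM, led by Mir137 (6615 and 7220 CPM) and Mir128-1 (1272 and 1278 CPM). The 3 not detected, named for that reason, are Mir124a-1, Mir124a-2 and Mir124a-3, copies that make one mature miRNA and can lose reads as multimapping, so their levels are uncertain. The members' ratios, library 1 over library 2, were 1.16 to 1.32. Ratios below these were 0.90 for the neuronal sum, 1.08 for the erythroid sum, 1.09 for Mir126a and 1.14 for Mir122. Ratios above them were 1.78 for the leukocyte, 2.88 for the mesenchyme and smooth muscle, 5.12 for the gut and endocrine and 8.46 for the epithelial sum.

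The Mir130 and Mir301 family holds the same seed bases at a shifted place, and is known from blood vessels and growth control. The 3p miRNAs printed here begin with the 7 bases that make the seed of the Mir148 and Mir152 family, shifted by 1 base toward the 5′ end, so that their own seed is AGUGCAA. The shared 7 bases are in capitals.

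miR-130a-3p: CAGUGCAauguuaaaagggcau

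miR-130b-3p: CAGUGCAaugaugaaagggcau

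miR-301a-3p: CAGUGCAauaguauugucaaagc

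As a sum, these genes had more counts than the Mir148 and Mir152 genes, though Mir301b lay below Mir148a and Mir148b. In libraries 1 and 2, Mir130a had 14064 and 13905 CPM, Mir130b had 3168 and 3078 CPM, Mir301 had 1190 and 1216 CPM, and Mir301b had 83.2 and 81.5 CPM. Mir301b is listed by name, without its sequence. Summed, they reached 18393 ± 158 CPM, which is 52.7 times the family's counts in library 1 (95% exact interval 50.1 to 55.5) and 67.0 times in library 2 (63.9 to 70.4). Of the 4, all were detected and 0 were called higher in library 1, while Mir130a and Mir301 were called higher in library 2 with log2 ratios of -0.02 and -0.07 (exact binomial test, adjusted p = 0.0494 and 0.0299), beside the 24.2% of all detected genes called in that direction. By edgeR's exact test the adjusted p of both was 1. These small ratios depended on the scaling: with library sizes alone, neither was called, Mir130a turned to 0.02, and Mir130b was called higher in library 1 with 0.04. The median log2 ratio of the 4 was -0.01, beside 0.39 for the family and -0.0036 for all detected genes. The other mature sequences of the RefSeq table that start with these 7 bases belong to Mir130c and Mir6389, with 0 counts in both libraries, to Mir6341, with 0 counts and 1 count, and to Mir721, not analysed here.

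**Figure D4:**
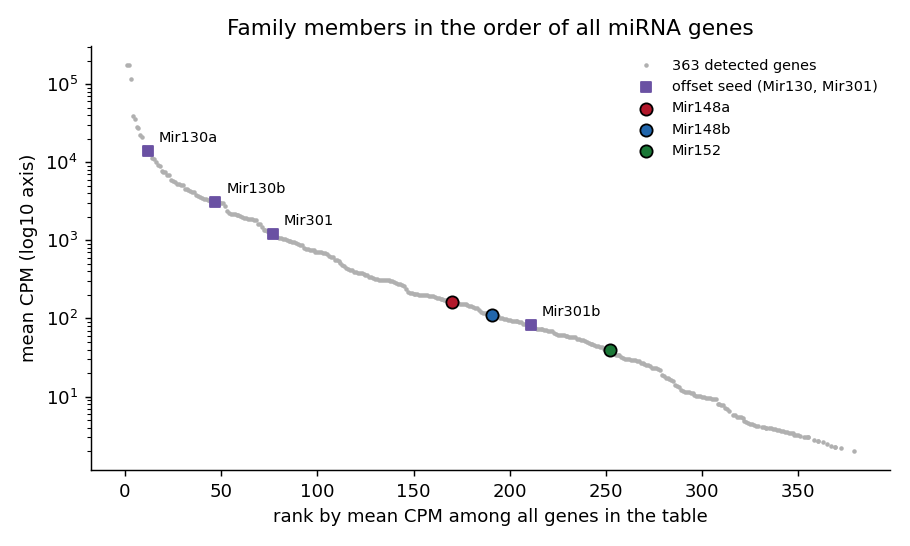
Mean CPM (log10 axis) against rank for the 363 detected genes (grey), with the Mir130 and Mir301 genes as purple squares and the family members as coloured circles. Mir130a ranks 12, Mir130b 47 and Mir301 77, all above Mir148a at 170, while Mir301b at 211 lies between Mir148b at 191 and Mir152 at 252.

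Another family known to restrain DNA methyltransferases, in its case Dnmt3a and Dnmt3b, had fewer counts as a sum. Mir29a had 145 and 91.2 CPM in libraries 1 and 2, Mir29c had 74.7 and 69.9 CPM, and the copies Mir29b-2 and Mir29b-1 had 2.84 and 2.48 CPM, and 1.89 and 1.99 CPM. The 4 genes summed to 195 ± 42.0 CPM, less than the 312 ± 55.3 CPM of the Mir148 and Mir152 family, and were lower in each pool, with 225 against 351 CPM in library 1 and 166 against 273 CPM in library 2. The copies of one mature miRNA can lose reads as multimapping, so the Mir29b levels are uncertain. Of the 3 detected members 1, Mir29a, was called higher in library 1 (1.56-fold, 1.39 to 1.75), beside 25.6% of all detected genes. The median log2 ratio of the 3 was 0.16.

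The genes nearest to each member in level were found by the distance between log2(CPM + 1) values over the 2 libraries, among the detected genes. For Mir148a these were Mir542 (184 and 126 CPM, distance 0.13), Mir421 (170 and 154 CPM, distance 0.20) and Mir221 (170 and 122 CPM, distance 0.22), all 3 on chromosome X. For Mir148b they were Mir503 on chromosome X (117 and 99.0 CPM, distance 0.037) and Mir410 and Mir494 on chromosome 12 (111 and 102 CPM, distance 0.10, and 127 and 96.4 CPM, distance 0.11). For Mir152 they were Mir6944 on chromosome 13 (46.4 and 34.9 CPM, distance 0.043), Mir362 on chromosome X (50.6 and 38.4 CPM, distance 0.22) and Mir1981 on chromosome 1 (47.1 and 41.6 CPM, distance 0.29). No member of the family was among the 3 nearest genes of another. With 2 values a gene, many genes lie close together by level alone.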

How the data were processed

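The authors deposited raw counts of reads per annotated miRNA gene for each library, on mm10 with GENCODE M4 per the deposited README texts. For the aligner, counter and trimming, nothing was given in the sources used here. Rows naming no gene held 45.7% (library 1) and 47.7% (library 2) of reads and were left out. Multimapping reads were 29.4% and 29.7%. The sense strand (column 3) held 98.2% and 98.4% of gene counts and was used throughout. Symbols and positions came from GENCODE M21, which matched 1894 of 1973 identifiers, and sequences from RefSeq.

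Genes with at least 10 counts in each library were compared by an exact binomial test against TMM effective library sizes (edgeR 4.0.16, R 4.3.3), adjusted over 363 genes at 0.05. No test between conditions was possible with 1 group. The test was checked on counts simulated with counting error alone, so the check does not cover variation between the pools. Alternatives used DESeq2 1.42.0 size factors and other choices given below. Python 3.11.15, pandas 2.3.3, numpy 2.4.6, scipy 1.17.1 and matplotlib 3.10.9 were used.

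Members and gene lists were chosen with earlier results of these data known. Named genes were the members, every gene of a list of under 6 (otherwise the 2 most abundant), the 3 nearest in level, and genes sharing the seed in place or shifted by 1 base. Results for 1 further list are not reported here. Reads carry no molecular identifiers, so intervals and detection limits (3 counts) cover counting error only.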

Additional observations from a re-analysis of the deposited data

How the results depend on the processing

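With all reads of the file as library size, the mean level was 85.0 CPM for Mir148a, 57.8 for Mir148b, 20.97 for Mir152 and 164 for the family, and with the 3 most abundant genes left out of the library size it was 302, 206, 74.5 and 582 CPM. These changes follow from the denominators, and the order of the members was the same. Without replicate 1 or replicate 2, ranks ran from 167 to 171 for Mir148a, 188 to 190 for Mir148b and 246 to 249 for Mir152. By edgeR's exact test the log2 ratios of library 1 to library 2 were 0.39, 0.22 and 0.40 for Mir148a, Mir148b and Mir152, none past the threshold, and 8 genes were called in place of 181. With no filter on low counts, Mir148b had a log2 ratio of 0.18 and was no longer called, with 709 genes tested and scaled in place of 363. Of 78 alternatives over 18 results, 26 could not have moved a value: leaving out 1 of 2 libraries shifts a mean by less than the SD (20 alternatives), and the members had no read on the other strand (6 alternatives on shares and ratios). Of the other 52, 35 kept the value within the spread or the call on the same side of the threshold. Among these 52, the levels from unstranded counts changed by the denominator alone. Of the members' ratios between the libraries, the only results for which a reversal was scored, 0 reversed a direction. Mir152 had its highest adjusted p in the exact binomial test, 0.04998, with library 2 thinned at random to the depth of library 1. That value lies at the threshold and depends on the random draw. In the same exact test, the highest adjusted p of Mir148a over these alternatives was 4.38e-06. No paired analysis was possible because the replicates belong to 1 group. The Mir152 level rests on 194 and 205 counts, the fewest of the family.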
